A study of Bos taurus with 2 samples.

Results

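The imprinted DLK1-DIO3 locus carries a large run of microRNA (miRNA) genes, and the subject here is its long 3′ cluster, from miR-379 to miR-656, in the lungs of newborn cattle. Members were taken from a list of 51 names, matched to rows under bovine (bta) names in the deposited table. Of these names 40 had a row, in 47 rows and 45 distinct sequences out of 2271 rows in all. All 40 names matched a RefSeq hairpin gene lying between MIR379 and MIR656 in the assembly ARS-UCD2.0, which lists 50 hairpins in that stretch.

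The study sequenced small RNA from 2 pools of lung RNA, 1 from collapsed lungs and 1 from normal lungs, so that each group was 1 library. Per the series text the pools came from neonatal cloned and normal cows, 4 animals to a pool and 500 ng of total RNA per sample, and the model is one of neonatal respiratory distress. The sample labels name the phenotype (collapsed or normal) and the tissue. They do not state for the collapsed pool that its animals were the clones, so cloning, collapse and any other difference between the pools cannot be told apart. Reads in the table numbered 2822876 for the collapsed pool and 4550911 for the normal pool. The floor that a count of 3 reads sets was 1.06 reads per 1000000 (RPM) in the collapsed pool and 0.659 RPM in the normal pool. With 1 pool a group there is no measure of the spread between animals, and every interval below covers counting error only.

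At this locus the paternal chromosome expresses the protein-coding genes DLK1, RTL1 and DIO3, and the maternal chromosome expresses the long non-coding RNAs MEG3 and MEG8 and the miRNAs. The miR-379 to miR-656 hairpins are thought to be cut out of long maternal transcripts, and each hairpin can give a mature miRNA from its 5p arm and from its 3p arm. In mice the cluster is active in the fetus, the placenta and the brain, and loss of the maternal cluster impairs the switch to independent metabolism at birth. Imprinting of this locus is also known to fail in some reprogrammed mouse stem cell lines.

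Sequences of the members with the widest or best-counted values follow, as the deposited table gives them in DNA letters, 5′ to 3′, with the seed (bases 2 to 8, the part that chiefly selects target mRNAs) in capitals. The first set holds the abundant members whose levels lay close together in the 2 libraries or only slightly apart, shown because they make up most of the cluster's reads.
miR-411a: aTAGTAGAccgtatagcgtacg
miR-380-3p: tATGTAATgtggtccacgtct
miR-379: tGGTAGACtatggaacgtagg
miR-494: tGAAACATacacgggaaacctct
miR-369-3p: aATAATACatggttgatcttt
miR-411c-5p: gGTTGATCagagaacatacatt
miR-410: aATATAACacagatggcctgt
miR-487b: aATCGTACagggtcatccactt
The second set stood lower in the collapsed pool and holds 5 of the 6 members whose upper interval bound lay farthest below 1, the other being miR-380-3p of the first set.
miR-543: aAACATTCgcggtgcacttctt
miR-154c: aGATATTGcacggttgatctct
miR-409a: aGGTTACCcgagcaactttgcat
miR-381: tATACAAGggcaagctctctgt
miR-411c-3p: tGTATGTCaactgatccacagt
The third set holds the members that stood higher in the collapsed pool by more than counting error.
miR-411b: tGGTCGACcataaaacgtacgt
miR-495: aAACAAACatggtgcacttctt
miR-134: tGTGTGACtggttgaccagagt
No seed occurs more than once in these 3 sets. The deposited name of miR-134 ends in L+2R-2, read here as a start 2 bases before the reference form. Its capitals are therefore bases 2 to 8 of the deposited sequence and not the seed of the reference form. miR-543 of the second set and miR-495 of the third share their last 12 bases and differ in the seed.

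Scaled to totals, the cluster as a whole stood slightly lower in the collapsed pool. Its 47 rows summed to 10253 RPM in the collapsed pool and 11159 RPM in the normal pool. Its share of reads was 1.03% in the collapsed pool, with an exact binomial interval at 95% of 1.01 to 1.04%, and 1.12% in the normal pool, with an interval of 1.11 to 1.13%. The ratio of the sums, collapsed over normal, was 0.919 (0.906 to 0.932). Under other scalings of the libraries it was lower still, at log2 ratios from -0.28 to -0.24 against -0.12 by totals. Those values stand with the processing alternatives.

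A row was counted as measured when its mean over both libraries reached 10 RPM, which 37 of the 47 rows did, in 33 names. A call needed a 2-fold difference in either direction (a ratio of 2 or more, or of 0.5 or less) together with an exact conditional binomial 95% interval that left out 1. No member was called, where 6.37% of all 487 measured rows were (3.49% higher and 2.87% lower). With no minimum level, and so over all 47 rows, the counts were again 0 and 0. With 1 library a group no replicated test was run, and the interval on reads compares these libraries and not the conditions. The intervals left out 1 in 11 of the 37 measured members, or 29.7%, against 61% of all measured rows. Of these 11, 3 were above 1 and 8 below, where 35.7% of all measured rows lay above and 25.3% below. Members were scarcer than the table at large, with a median level of 69.1 RPM against 98.1 RPM over all measured rows. Scarcer rows have wider intervals, but the part of level in these shares was not tested.

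The members' ratios were tightly grouped and leaned below those of the table. The median log2 ratio over the 37 measured members was -0.05 (quartiles -0.19 and 0.08), beside 0.09 over all 487 measured rows (quartiles -0.18 and 0.34). The ratio was below 1 in 25 of the 37 measured members, or 67.6%, against 41.1% of all measured rows. Under the 3 other scalings it was below 1 in 75.7% to 83.8% of the members, against 53.6% to 58.1% of all measured rows. Of the 37, 35 lay within 1.5-fold, and the 2 that did not, miR-411b and miR-134, are 5.41% of them, against 19.9% of all measured rows past 1.5-fold with an interval off 1. Among the 15 members at 100 RPM or more the median log2 ratio was -0.03, with a range from -0.56 to 0.28. In the 22 members between 10 and 100 RPM it was -0.07.

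**Figure D1:**
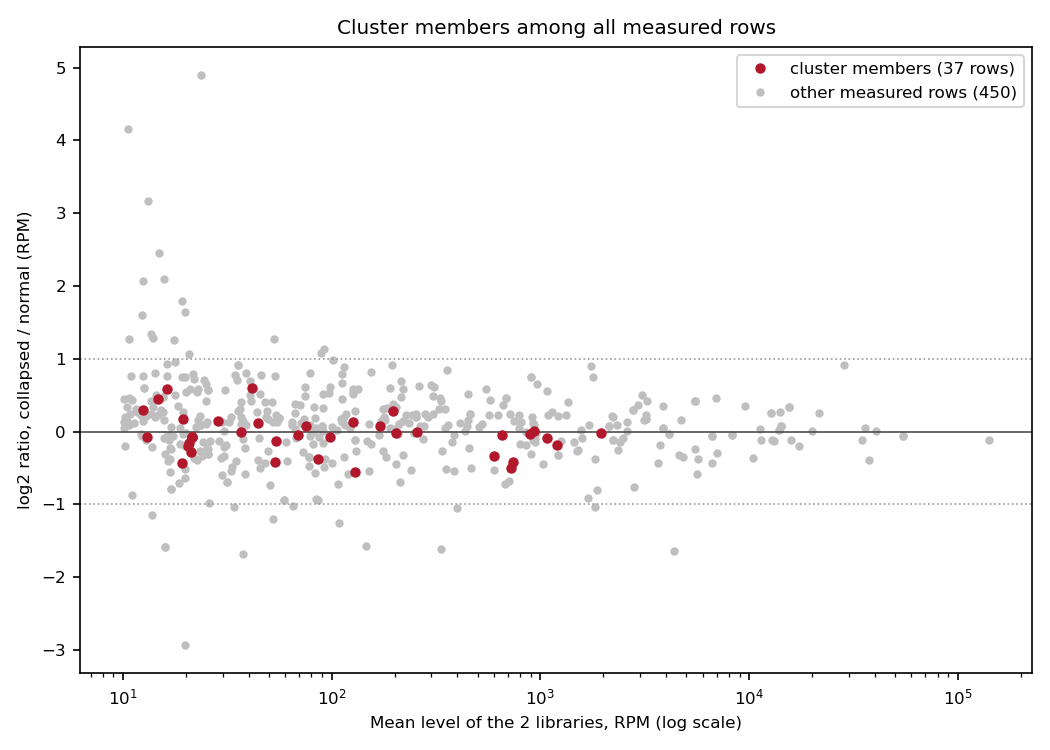
log2 ratio, collapsed over normal (vertical axis), against the mean level of both libraries in RPM (horizontal log axis), for the 37 measured cluster members (red) and the 450 other measured rows (grey). Dotted lines mark a 2-fold difference, and all red points lie between them.

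Levels within the cluster ranged over 3 orders of magnitude, and the order of the members was almost the same in both libraries. The most abundant member, miR-411a, stood at 1951 RPM in the collapsed pool and 1974 RPM in the normal pool. The scarcest, miR-412, stood at 1.06 RPM in the collapsed pool and 0.879 RPM in the normal pool, on 3 reads in the collapsed pool and 4 in the normal pool. The 12 rows with most reads were the same 12 in both libraries. The 5 leading names, miR-411a, miR-380, miR-379, miR-494 and miR-369, were the same in both libraries and held 58.2% of the cluster's reads in the collapsed pool and 56.0% in the normal pool. Across the 35 distinct measured sequences the levels in the 2 libraries had a Spearman's rho of 0.98, a description over sequences that share a library and a locus.

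**Figure D2:**
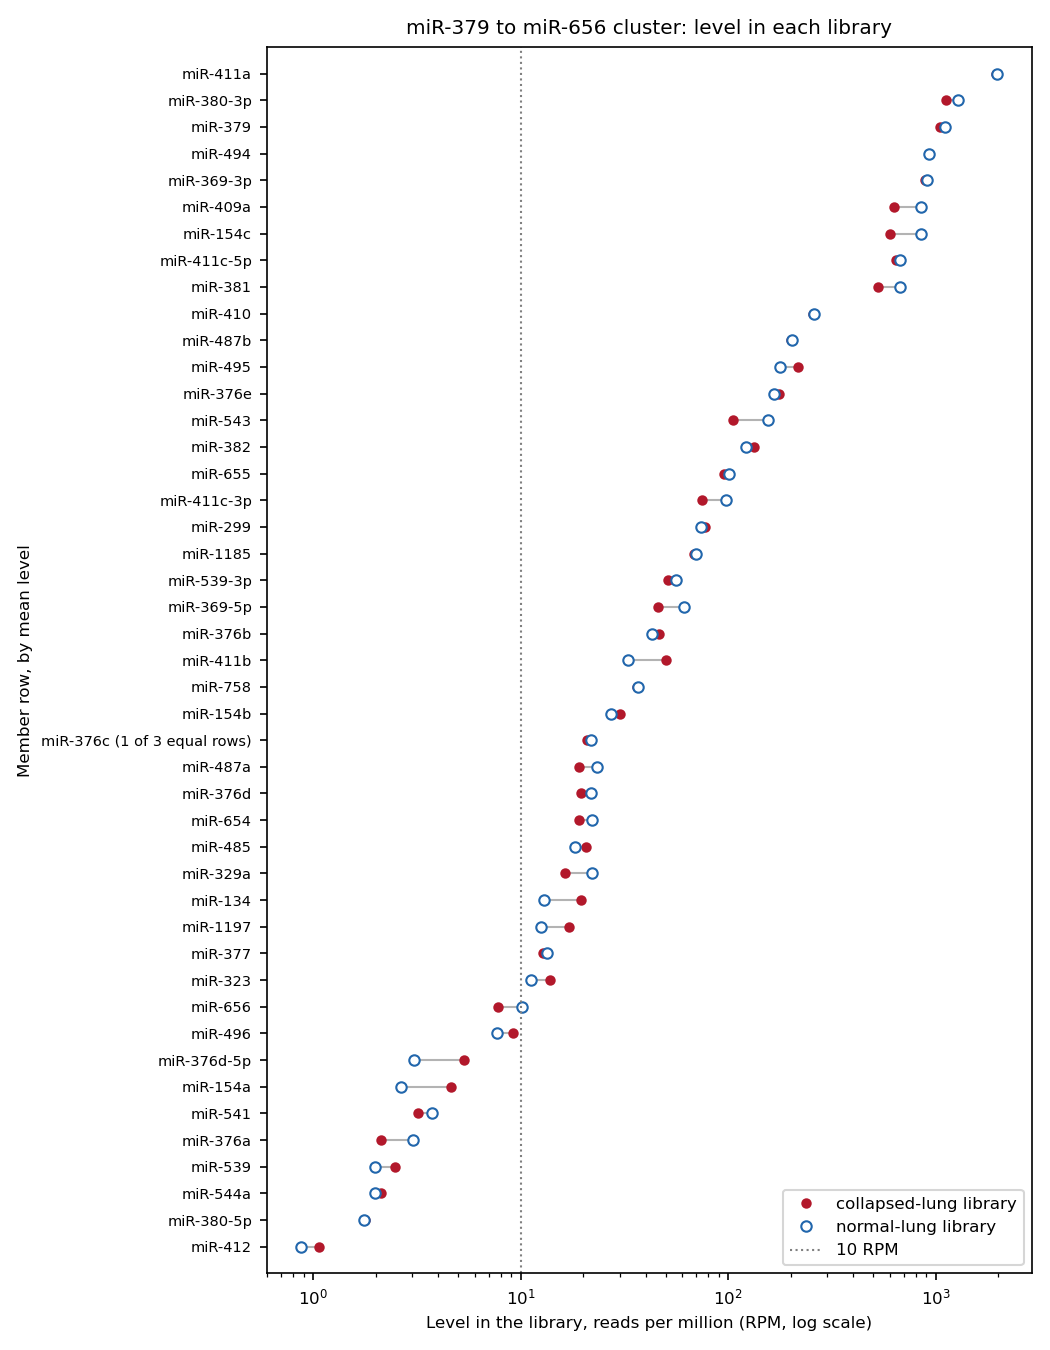
Level of each member row in the collapsed pool (filled red) and the normal pool (open blue), in RPM on a log axis, with rows ordered by mean level and the 10 RPM minimum dotted. The circles nearly coincide for miR-411a, miR-494 and miR-410, and stand apart for miR-154c, miR-409a, miR-543 and miR-411b.

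The abundant members of the first set showed little or no difference. miR-411a, which stands beside miR-379 on the locus, had 5507 reads in the collapsed pool and 8983 in the normal pool, a ratio of 0.988 (0.956 to 1.02). miR-494 had 2620 reads in the collapsed pool and 4217 in the normal pool, a ratio of 1.00 (0.954 to 1.05). miR-369-3p had 883 RPM in the collapsed pool and 901 RPM in the normal pool (0.980, 0.932 to 1.03). For these 3 the interval held 1 by totals, and under each of the 3 other scalings it lay below 1.

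Intervals also held 1 by totals for miR-411c-5p, miR-410 and miR-487b, but not for miR-379 and miR-380-3p. miR-411c-5p stood at 646 RPM in the collapsed pool and 669 RPM in the normal pool (ratio 0.966, 0.911 to 1.02). miR-410, which lies near the far end of the cluster, stood at 256 RPM in the collapsed pool and 258 RPM in the normal pool (0.994, 0.904 to 1.09). miR-487b stood at 201 RPM in the collapsed pool and 204 RPM in the normal pool (0.986, 0.887 to 1.10). Under median-of-ratios factors the intervals of all 3 lay below 1. That of miR-411c-5p also lay below 1 under both other scalings, that of miR-410 under the normalized values of the authors, and that of miR-487b under neither. A pair of abundant members was slightly lower: miR-379, the first hairpin of the cluster, at 1044 RPM in the collapsed pool and 1107 RPM in the normal pool (0.943, 0.901 to 0.987), and miR-380-3p at 1119 RPM in the collapsed pool and 1276 RPM in the normal pool (0.877, 0.839 to 0.916).

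The second set stood lower in the collapsed pool, by 1.27-fold to 1.47-fold, short of the 2-fold threshold. miR-543 had 297 reads, or 105 RPM, in the collapsed pool and 704 reads, or 155 RPM, in the normal pool, a ratio of 0.680 (0.592 to 0.780). miR-154c, a bovine relative of miR-154, had 1694 reads, or 600 RPM, in the collapsed pool and 3875 reads, or 851 RPM, in the normal pool, a ratio of 0.705 (0.665 to 0.746). miR-409a had 1782 reads, or 631 RPM, in the collapsed pool and 3845 reads, or 845 RPM, in the normal pool, a ratio of 0.747 (0.706 to 0.791). All 3 were among the well-counted members, and their intervals lay wholly below the ratio of the cluster's sum, 0.919.

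miR-381 stood at 529 RPM in the collapsed pool and 669 RPM in the normal pool (ratio 0.790, 0.742 to 0.841). miR-411c-3p stood at 74.7 RPM in the collapsed pool and 97.6 RPM in the normal pool (0.766, 0.647 to 0.905). miR-369-5p stood at 45.7 RPM in the collapsed pool and 60.9 RPM in the normal pool (0.751, 0.604 to 0.929). These last 2 are the scarcer arms of hairpins whose other arm is among the abundant members given above.

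The third set was higher in the collapsed pool, and miR-495 was the only well-counted one of its 3 members. It had 611 reads, or 216 RPM, in the collapsed pool and 809 reads, or 178 RPM, in the normal pool, a ratio of 1.22 (1.09 to 1.35). miR-411b stood at 49.9 RPM in the collapsed pool and 33.0 RPM in the normal pool, a ratio of 1.52 (1.20 to 1.92). miR-134, which limits the size of dendritic spines in rat neurons, had 55 reads, or 19.5 RPM, in the collapsed pool and 59 reads, or 13.0 RPM, in the normal pool, a ratio of 1.503 (1.02 to 2.21). Under the 3 other scalings the interval of miR-134 held 1, and under median-of-ratios factors so did that of miR-495, while that of miR-411b lay above 1 in each of them.

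The other measured members had intervals that held 1 when scaled to totals. miR-382 stood at 132 RPM in the collapsed pool and 121 RPM in the normal pool (1.09, 0.955 to 1.25). miR-655 stood at 95.6 RPM in the collapsed pool and 101 RPM in the normal pool (interval 0.815 to 1.11). miR-758, known in mouse macrophages to lower the cholesterol transporter ABCA1, stood at 36.5 RPM in the collapsed pool and 36.7 RPM in the normal pool (0.994, 0.770 to 1.28). The members not named one by one, miR-539-3p, miR-154b, miR-487a, miR-654, miR-485, miR-377, miR-323, miR-299, miR-329a and miR-1197, had ratios from 0.742 in miR-329a to 1.36 in miR-1197, all with intervals that held 1. Under the 3 other scalings the interval of miR-329a lay below 1, and under median-of-ratios factors that of miR-655 did too.

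Below the minimum of 10 RPM lay 10 rows, those of miR-656, miR-496, miR-376d-5p, miR-154a, miR-541, miR-376a, miR-539, miR-544a, miR-380-5p and miR-412. miR-656, the last hairpin of the cluster, had 22 reads in the collapsed pool and 46 in the normal pool, a ratio of 0.771 (0.442 to 1.31). All 10 intervals held 1, and each held a 2-fold difference in at least 1 direction, so that a difference of that size was not detectable at this depth. Of the 51 names, miR-1193, miR-323b, miR-409b, miR-411, miR-544b and miR-889 had no row under any species name.

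The ratios within the cluster were not all alike within their counting intervals. The interval of 14 of the 37 measured members left out the ratio of the summed cluster, 8 of them above it and 6 below. The share of all measured rows that left out this ratio was not determined, and 61% of them left out 1. The count is therefore not read as a trait of the cluster. Some members with unlike ratios were neighbours on the locus, and the examples here were picked for their values. Other neighbours lay close, such as miR-379 at 0.943 and miR-411a at 0.988. In RefSeq's order MIR543, MIR495 and MIR154C follow each other, at ratios of 0.680, 1.22 and 0.705, and the interval of miR-495 overlapped with neither of the others. Likewise MIR380 is next to MIR411B, at ratios of 0.877 for miR-380-3p and 1.52 for miR-411b, with intervals that did not overlap. Base composition, length and hairpin order moved little with the log2 ratio over 35 sequences. Spearman's rho was 0.19 for GC content, 0.10 for length and -0.11 for hairpin order, each too weak to describe a pattern. For mean level in RPM it was -0.25.

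The miR-376 group is the only one among the bovine rows with a shared seed, and it is a known site of RNA editing in mouse and human brain. The deposited reads of its rows are not whole numbers in the normal pool, so that reads had been divided among names. The sequences are shown to make clear how few bases separate them.
miR-376a: aTCATAGAggaaaatccacgt
miR-376b: aTCATAGAggaaaatccatgt
miR-376d: aTCATAGAggaaaatccacat
miR-376e: aACATAGAggaaaatccacatt
oar-miR-376c-3p: aACATAGAggaaattccacgt
miR-376a, miR-376b and miR-376d share the seed TCATAGA and summed to 68.0 RPM in the collapsed pool and 67.5 RPM in the normal pool, a ratio of 1.01 (0.837 to 1.21). miR-376e stood at 175 RPM in the collapsed pool and 166 RPM in the normal pool (1.06, 0.941 to 1.18). The row under the sheep name oar-miR-376c-3p, with the same seed as miR-376e, stood at 196 RPM in the collapsed pool and 245 RPM in the normal pool (0.798, 0.719 to 0.885). The intervals of these last 2 did not overlap, but separate values in this group are uncertain because reads were divided. The bovine row miR-376c holds the opposite arm and stands on 3 equal rows of 20.8 RPM each in the collapsed pool and 21.9 RPM each in the normal pool.

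The bovine names leave out 1 arm of most hairpins, and the table fills many of these under names of other species, mostly sheep (oar), human (hsa) or mouse (mmu). There were 38 rows of a member name under other species, 35 of them under these 3 prefixes. Of the 38 rows 16 were measured, with a median log2 ratio of -0.06 and 9 ratios below 1. With them added the cluster summed to 12816 RPM in the collapsed pool and 13741 RPM in the normal pool, a ratio of 0.933 (0.921 to 0.945). Of the 16 rows 1 was called, oar-miR-1185-3p, lower in the collapsed pool, which is 6.25% and near the 6.37% of all measured rows.

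Both arms of a hairpin arise from 1 precursor molecule, and 11 member hairpins had both arms measured under any species name. Their log2 ratios differed by 0.33 at the median, whichever arm was higher, and by no more than 0.5 in 10 of the 11 pairs. In 4 of the 11 pairs the intervals of the arms did not overlap, those of miR-1185, miR-409, miR-369 and miR-411c. The share of such pairs among hairpins outside the cluster was not determined, so this count is not read as a trait of the cluster. Separate values of the 3p arms of miR-379 and miR-411a are uncertain, since these sequences are nearly the same and their reads in the normal pool, 666.5 and 1587.5, are not whole. The sequences of the first 2 pairs are given because their arm balance differed most clearly. The deposited name of oar-miR-409-3p ends in L-1, so its start and its capitals are shifted from the reference form of that name.
miR-1185: aGAGGATAccctttgtatgtt
oar-miR-1185-3p: aTATACAGagggagactcttat
miR-409a: aGGTTACCcgagcaactttgcat
oar-miR-409-3p: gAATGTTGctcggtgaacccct
miR-1185 had 192 reads in the collapsed pool and 319 in the normal pool, a ratio of 0.970 (0.807 to 1.16). Its partner oar-miR-1185-3p had 24 reads in the collapsed pool and 86 in the normal pool, a ratio of 0.450 (0.274 to 0.714). In the authors' deposited table this row is among the 78 listed as different, at a log2 fold change of -1.28. None of the 47 member rows is in that section of the authors' deposited table.

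The miR-409 hairpin gave the arm balance with most reads behind it. Its 3p arm, under the sheep name, had 2257 reads in the collapsed pool and 3521 in the normal pool, a ratio of 1.03 (0.980 to 1.09), while miR-409a was lower as given above. The 3p arm thus took 55.9% of the hairpin's reads in the collapsed pool (54.3 to 57.4%) and 47.8% in the normal pool (46.7 to 48.9%), so that the more abundant arm was not the same one in the 2 libraries. For miR-369 the 3p arm took 95.1% in the collapsed pool (94.2 to 95.9%) and 93.7% in the normal pool (92.9 to 94.4%). For miR-411c the 5p arm took 89.6% in the collapsed pool (88.2 to 90.9%) and 87.3% in the normal pool (86.1 to 88.4%). In miR-1185, miR-369 and miR-411c it was the scarcer arm that had the lower ratio.

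**Figure D3:**
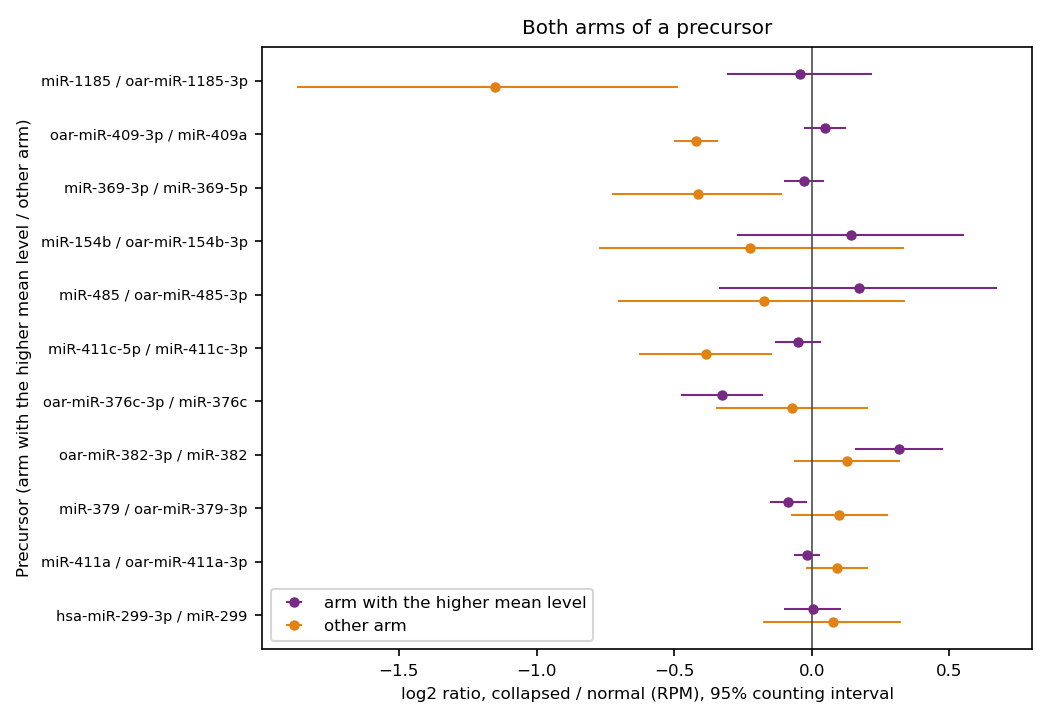
log2 ratio, collapsed over normal, of both arms of 11 member hairpins with their 95% counting intervals, purple for the arm with the higher mean level and orange for the other. The intervals are apart in the pairs of miR-1185, miR-409, miR-369 and miR-411c.

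The rest of the locus lay differently. The miRNAs between miR-493 and miR-370, on the MEG3 side, are in part cut from a transcript antisense to RTL1, whose mRNA miR-127 is known to cleave in mice. Of 10 names listed there, 7 bovine rows were measured and none was called. All 7 ratios were above 1 by totals, and 6 of the 7 under each of the 3 other scalings. By totals 5 of the 7 intervals lay above 1, while those of miR-433 and miR-136 held 1. Of all measured rows 41.1% had a ratio below 1 by totals. Of the 37 measured cluster members 12 were above 1 by totals. The median log2 ratio of the 7 rows was 0.38, and they included miR-127 at a ratio of 1.20 (1.19 to 1.22), miR-493 at 1.499 (1.35 to 1.66) and miR-370 at 1.73 (1.498 to 1.99). The 9 bovine rows summed to 16268 RPM in the collapsed pool and 13452 RPM in the normal pool, a ratio of 1.21 (1.19 to 1.22), whose interval did not overlap with that of the cluster, 0.906 to 0.932. Without miR-127, which holds most of these reads, the ratio was 1.33 (1.26 to 1.40). Under other species' names 4 more rows were measured there, 2 above 1 and 2 below, and the lowest of them was hsa-miR-136-3p at 0.881 (0.859 to 0.903). With the rows of all species the sum's ratio was 1.14 (1.12 to 1.15). At the other end, beside DIO3, miR-1247-5p had a ratio of 0.131 (0.0683 to 0.230) on 13 reads in the collapsed pool and 160 in the normal pool, and was chosen after its value was seen.

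**Figure D4:**
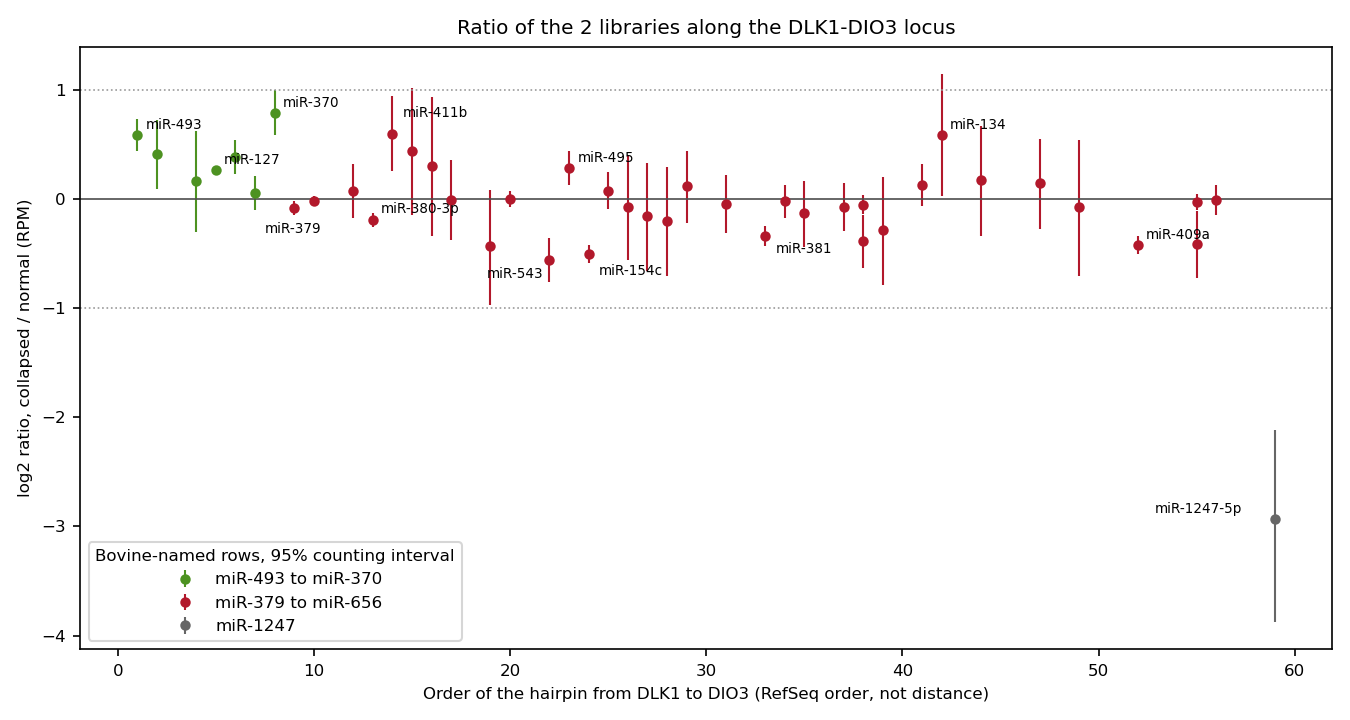
log2 ratio, collapsed over normal, of measured bovine rows against the order of their hairpins from DLK1 to DIO3, with 95% counting intervals. The 7 points from miR-493 to miR-370 (green) lie above 0 when scaled to totals (6 of 7 under other scalings). The intervals of miR-433 and miR-136 among them hold 0. The miR-379 to miR-656 rows (red points) lie on both sides of 0 and between the dotted 2-fold lines, and miR-1247-5p (grey) lies far below.

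Small RNA of many cell types is mixed in whole lung, and in such bulk samples fewer cells of a type and less RNA per cell cannot be told apart. Of the marker lists none had a called row. The mesenchyme list (miR-143, miR-145, miR-199a, miR-199b, miR-214) summed to a ratio of 0.997 (0.994 to 1.00), but miR-143 holds most of its reads and its rows went both ways. Of its 9 rows 7 were above 1, those of miR-199a, miR-199b and miR-214, at log2 ratios from 0.26 to 0.63. The other 2, miR-143 and miR-145, were below 1, at log2 ratios of -0.12 and -0.58. Over the 9 rows, repeats included, all intervals left out 1 and the median log2 ratio was 0.33. Summed levels stood at a ratio of 0.927 (0.911 to 0.943) for the epithelial miR-200 family and 1.05 (1.04 to 1.06) for the endothelial miR-126. The leukocyte list (miR-142, miR-150, miR-223) stood at 0.794 (0.771 to 0.818) and the erythroid list (miR-144, miR-451, miR-486) at 0.958 (0.932 to 0.985). The striated muscle list, in which miR-133a and miR-499 were measured, summed to 87.1 RPM in the collapsed pool and 111 RPM in the normal pool (0.787, 0.673 to 0.918). Their part in the cluster's ratios was not tested. Other imprinted miRNAs outside the locus went both ways, with miR-483 at 1.85 (1.60 to 2.13) and miR-335 at a log2 ratio of -0.14.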

How the data were processed

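Small RNA was extracted with Trizol and made into libraries with a TruSeq small RNA kit, per the labels' protocols, and the genome build was bosTau8 per the submitters' processing notes. For trimming, the aligner and the miRNA database release, names and versions were not given in the sources used here. The authors deposited raw reads per miRNA name and sequence for 1 library of each phenotype, in part not whole numbers, which are estimated read counts. They also deposited normalized reads, a signal that is raw reads over a factor per library (0.823 collapsed, 1.21 normal), and, per the file headers, the ratio (fold change) and its log2 value. The deposited p-values, per the file headers from chi-square and Fisher's tests on reads of 2 libraries, were not used. Emptied lines (2) were not analysed here.

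Reads were scaled to 1000000 reads of the table (RPM). Ratios had exact conditional binomial 95% intervals (scipy 1.17.1, reads rounded for the interval), which cover counting error only. PCR reads are not independent molecules, so these intervals may be too narrow. The floor of 3 reads did not enter them. The calling step was tested on simulated reads. Members, lists and rules were chosen with earlier results of these data known. The named members were the 12 most abundant rows, up to 6 in each direction with intervals farthest from 1, called rows, and rows within 0.2 log2 of the threshold. Rows outside that rule are named as arms, seed groups or locus neighbours, or to account for every member. An ending p3 or p5 is read as the 3p or 5p arm, the bta prefix and end suffixes are left out of names, and RefSeq (ARS-UCD2.0) served only for the order of hairpins. Alternatives were 3 other scalings, other minimums and folds, 5 added reads, summed sequences and rows of other species.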

Additional observations from a re-analysis of the deposited data

How the results depend on the processing

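No paired analysis was possible because each group is 1 library. Other scalings moved all log2 ratios down, by -0.16 (median-of-ratios factors), -0.12 (factors from a trimmed mean of M values) and -0.13 (normalized values of the authors). The log2 ratio of the summed cluster, -0.12 by totals, was then -0.28, -0.24 and -0.25, in the same order. The members' median log2 ratio was -0.21, -0.17 and -0.18. Minus the median of all measured rows it was -0.14 in each case, as by totals. That difference could not change, since each scaling moves all log2 ratios alike. Intervals that left out 1 then numbered 1, 2 and 2 above 1 and 16, 13 and 14 below, against 3 and 8 by totals, so the balance of these counts depends on the scaling. All measured rows turned the same way, with 22.8%, 25.9% and 25.1% above 1 and 36.3%, 33.1% and 34.7% below, against 35.7% and 25.3% by totals.

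Counts of calls stayed at 0 higher and 0 lower under these scalings, with no minimum and with rows of 1 sequence summed. With a minimum of 100 RPM or a ratio of at least 4 they were 0 by construction, since both only narrow the rule. A ratio of at least 1.5 gave 2 higher (miR-411b and miR-134) and 0 lower, and adding rows of all species gave 0 higher and 1 lower (oar-miR-1185-3p), each by construction. The median ranged from -0.05 to -0.03 under the other filters and with 5 reads added. Of the 64 alternative values of the 16 named ratios, 30 fell outside the member's counting interval by totals, all under other scalings, and 34 fell inside it. A turned sign occurred in 3 of the 64, all of miR-494 (log2 ratio 0.002 by totals), and none crossed the 2-fold threshold. Depth limits the scarce members most, since the median half-width of the interval was 0.48 on the log2 scale between 10 and 100 RPM and 0.08 at 100 RPM or more.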

Other observations

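Of the 11 names without a bovine row, 5 had a row under another species' name. The mouse-named mmu-miR-300-3p stood at 336 reads in the collapsed pool and 652 in the normal pool, a ratio of 0.831 (0.726 to 0.949), and cgr-miR-300 at 16.3 RPM in the collapsed pool and 16.9 RPM in the normal pool. Both sequences are nearly the same as that of miR-381, and neither name was matched to a hairpin of the locus. From which hairpin their reads came was not tested. The sheep-named oar-miR-376a-5p, the opposite arm to miR-376a, stood at 66.6 RPM in the collapsed pool and 99.3 RPM in the normal pool, a ratio of 0.671 (0.563 to 0.797). Its bovine partner miR-376a had 6 reads in the collapsed pool and 13.8 in the normal pool, too few to set beside it. These rows were chosen after their values were seen.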
